A study of Mus musculus with 12 samples.

Results

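The genes described here encode parts of the mitochondrial calcium uniporter, the channel through which calcium enters mitochondria, together with 2 proteins tied to it. They are Mcu, Mcub, Micu2, Micu3, Smdt1, Mcur1 and Letm1, 7 of the 53379 genes in the count table, matched by Ensembl identifier, and all 7 passed the filter on low counts that left 19252 genes. The set was selected on a measured value, the high Mcub counts of injured mice on the purified diet, so the injury comparison within that diet is given for every member as a description, with no test. The same holds for Mcub in every comparison that uses purified-diet libraries. Mcub is therefore tested only for injury within the fish oil diet.

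The libraries hold total RNA of brain, cortical per the submitters, from wild-type (WT) C57BL/6J mice killed 6 months after the injury. The 12 libraries form 4 groups of 3, numbered replicates 2, 3 and 4 by the submitters. Purified sham mice ate a continuous purified control diet and had the sham procedure, and purified injured mice ate that diet and received repetitive closed-head impacts below the level of mild traumatic brain injury. Fish oil sham and fish oil injured mice ate a high-fat diet with fish oil given in cycles, with the same sham or injury procedure, so fat content and fish oil change together between the diets. The age of the mice is not stated. No label says that each library is a separate animal, so a p-value here speaks only of library-to-library spread, which may be technical.

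Mitochondria take up calcium through a pore built of MCU subunits, and the small membrane protein EMRE, the product of Smdt1, holds the pore to its gatekeepers. The gatekeepers, of the MICU family, sense calcium outside the inner membrane and keep the pore shut at rest. MCUB is a close relative of MCU that joins the pore and lowers its calcium current. In neurons, uptake by this route couples synaptic activity to energy production, and overload of mitochondrial calcium is a known step in cell injury. In the adult brain MICU3 is the gatekeeper best known from neurons. MCUR1 is an inner-membrane protein reported to act in assembly of the uniporter, and LETM1 is an inner-membrane cation exchanger. Counts from bulk tissue cannot tell fewer cells of a type from less RNA per cell.

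Depth ran from 46362158 to 70754854 counts per library. The purified injured libraries, at 46362158 to 49991615, lay below every fish oil library, the lowest of which held 52098134, and overlapped purified sham. All 8 neuronal markers examined were detected in every library, with a summed level of 8826 to 12250 CPM (counts scaled to a common library total with TMM factors). Libraries stood apart by region: purified injured replicate 3 carried olfactory bulb transcripts, with Cdhr1 at 521 CPM against 1.87 to 25.9 CPM elsewhere, and fish oil sham replicate 2 striatal ones, with 8 markers summing to 2099 CPM against 159 to 847 CPM elsewhere. Choroid plexus markers were uneven too, at 224 to 2654 CPM in fish oil injured libraries and 480 CPM in purified sham replicate 3 against 18.0 to 64.4 CPM in the rest. Where leaving out purified injured replicate 3 or fish oil sham replicate 2 moves a printed difference of a member by more than 1.5 times, the value without it is given as well. By edgeR's quasi-likelihood test with Benjamini-Hochberg adjustment over 19252 genes, 0 genes passed an adjusted p of 0.05 in each of the 5 comparisons, which is 0% of genes. Between 670 and 2063 genes had an unadjusted p under 0.05, DESeq2 called 16 to 154 genes and limma-voom 0 or 1. No tested value of a member passed with either tool.

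Mcub and Mcu, the regulatory and the conducting pore subunit, differ in the sequence in front of their transcription start. The 250 bases upstream of the start, from RefSeq on GRCm38.p6, are shown for these members because the levels below turn on them, 5′ to 3′ on the gene's strand and with every CG pair in capitals. The Mcub window lies at chr3:129970207-129970456 on the minus strand and the Mcu window at chr10:59616693-59616942 on the minus strand.
Mcub: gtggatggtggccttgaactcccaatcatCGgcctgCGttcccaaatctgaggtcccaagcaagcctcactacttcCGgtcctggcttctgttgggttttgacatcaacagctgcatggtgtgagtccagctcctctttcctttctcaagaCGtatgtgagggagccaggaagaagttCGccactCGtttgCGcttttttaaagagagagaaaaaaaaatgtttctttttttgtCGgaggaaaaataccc
Mcu: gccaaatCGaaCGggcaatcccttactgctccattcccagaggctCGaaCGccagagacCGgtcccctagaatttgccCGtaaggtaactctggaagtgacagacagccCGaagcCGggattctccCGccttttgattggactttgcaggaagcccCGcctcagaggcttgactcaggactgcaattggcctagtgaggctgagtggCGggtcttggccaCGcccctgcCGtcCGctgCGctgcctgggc
The Mcub window held 8 CG pairs and 48% G or C, and the Mcu window 15 CG pairs and 60.8% G or C. Among 32851 promoter windows of this length the medians were 6 CG pairs and 52.4%, and 57% of windows had fewer CG pairs than Mcub against 72.7% for Mcu. The 4 other members with an entry, Micu2, Smdt1, Mcur1 and Letm1, had 14, 23, 21 and 17 CG pairs, so Mcub had the fewest of the 6. Searched on both strands, TATAAA was in none of the 6 windows and in 12.4% of promoters, and CCAAT was found in those of Mcu, Mcub and Letm1 and in 33.8% of promoters. GGGCGG was found for Micu2, Smdt1, Mcur1 and Letm1 and in 32.7% of promoters, and not for Mcu or Mcub. These are letters in a window and not measured sites.

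The 7 members lie on 7 chromosomes. On GRCm38 with GENCODE M21, Mcub (ENSMUSG00000027994.14) spans 129914960 to 129970206 on the minus strand of chromosome 3, and Mcu (ENSMUSG00000009647.13) spans 59446984 to 59616692 on the minus strand of chromosome 10. Their transcripts share no run of 50 bases with each other or with any other annotated transcript, so reads of these paralogs can be told apart at that length. Smdt1 shares 245 exon bases, 16.6% of its exon length, and 9.98% of its runs of 50 bases with Pheta2 on the same strand. How far this affects its count is not known. Micu3 shares 202 exon bases with Fgf20 on the opposite strand, 3.28% of its exon length. In Letm1, 0.781% of its runs of 50 bases also occur in transcripts of other genes.

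Per exon length the gatekeeper Micu3 was the most abundant member and Mcub the least. Median levels over the 12 libraries were 23.4 CPM per kilobase for Micu3, 13.2 for Smdt1, 8.34 for Letm1 and 7.57 for Micu2. Mcu stood at 4.13, Mcur1 at 3.99 and Mcub at 0.392 CPM per kilobase. Micu3 was above Smdt1, Smdt1 above Letm1, Micu2 above Mcu and Mcur1 above Mcub in all 12 libraries. Letm1 was above Micu2 in 10 of 12 and Mcu above Mcur1 in 7 of 12, so the members of these neighbouring pairs did not separate beyond their spread. The lengths are those of all annotated exons joined, which brain transcripts may not all use, so the order is approximate.

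**Figure D1:**
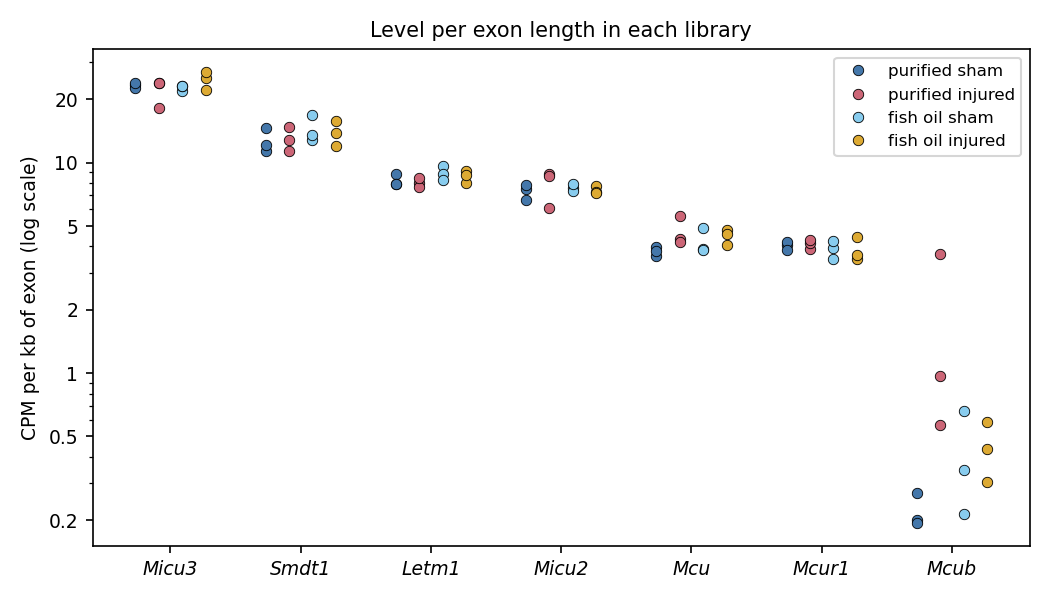
Level of each member in CPM per kilobase of exon (vertical, log scale), 1 point per library coloured by group, with members ordered by their median. Micu3 lies highest at a median of 23.4 and Mcub lowest at 0.392, with 1 purified injured library far above the other Mcub values.

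Mcub was scarce in every group and varied most. In purified sham libraries it stood at 0.264, 0.255 and 0.356 CPM in replicates 2, 3 and 4, from 16, 12 and 20 counts. The purified injured libraries held 0.748, 4.83 and 1.28 CPM, from 38, 237 and 64 counts. Fish oil sham libraries were at 0.456, 0.282 and 0.872 CPM, and fish oil injured ones at 0.3998, 0.772 and 0.577 CPM. All 3 purified injured libraries were above all 3 purified sham libraries, and so were all 3 fish oil injured libraries, the lowest of them by 0.3998 against 0.356 CPM. The fish oil groups overlapped each other, and fish oil sham overlapped purified sham. Fish oil sham replicate 4, an uninjured library, was above purified injured replicate 2. Of the 12 Mcub counts 11 were even, as when both mates of a read pair are counted, so fewer fragments than counts lie behind them.

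Injury on the purified diet went with a mean Mcub level of 2.29 ± 2.22 CPM (SD, n = 3) against 0.292 ± 0.0559 CPM in sham, which gives 2.96 ± 0.68 (SE) as log2 fold change. This is the value the set was chosen by, so it is a description. The SD of the injured group is nearly as large as its mean. Without replicate 3 the log2 fold change was 1.80, with the other injured libraries at 0.748 and 1.28 CPM. Non-overlapping groups with the injured side higher were found for 2 of the 7 members, Mcub and Mcu, and for 4.92% of all genes tested, and with the injured side lower for 0 members and 6.68% of genes.

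Injury on the fish oil diet, the comparison whose libraries played no part in the choice, showed no difference in Mcub beyond the spread. The mean was 0.583 ± 0.186 CPM (SD, n = 3) in injured and 0.537 ± 0.303 CPM in sham libraries. The log2 fold change was 0.12 ± 0.64 (SE), with a 95% interval from -1.28 to 1.53 and an edgeR adjusted p of 0.999. An interval this wide leaves room for a change of more than 2-fold in either direction. The spread behind the interval and the p was estimated over all 12 libraries, so the uneven purified injured values that chose Mcub enter both. The direction turned to -0.20 without fish oil sham replicate 3 and to -0.13 without fish oil injured replicate 3, and the value was 0.67 without fish oil sham replicate 4 and 0.00996 without fish oil sham replicate 2.

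Between the diets Mcub is again described only. Fish oil against purified diet gave a log2 difference of 0.87 ± 0.67 (SE) in sham mice, where the groups overlapped, and this fell to 0.32 without fish oil sham replicate 4. In injured mice the difference was -1.97 ± 0.65, also with overlapping groups, and -0.80 without purified injured replicate 3. The difference between the 2 injury effects was -2.83 ± 0.93, or -1.68 without that library. These comparisons share groups with the injury comparisons and are not independent of them.

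Relative to Mcu, Mcub stayed a minor transcript in most libraries. Per exon length Mcub was 5.03%, 5.35% and 7.12% of Mcu in the purified sham libraries. In the purified injured ones it was 13.1%, 65.6% and 23.2%. The fish oil sham libraries were at 8.90%, 5.53% and 13.5% and the fish oil injured ones at 7.45%, 12.3% and 9.52%. Purified injured libraries lay above purified sham ones in this ratio too, without overlap, and their lowest value, 13.1%, was below the 13.5% of fish oil sham replicate 4. This ratio does not depend on library scaling, only on the joined exon lengths.

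**Figure D2:**
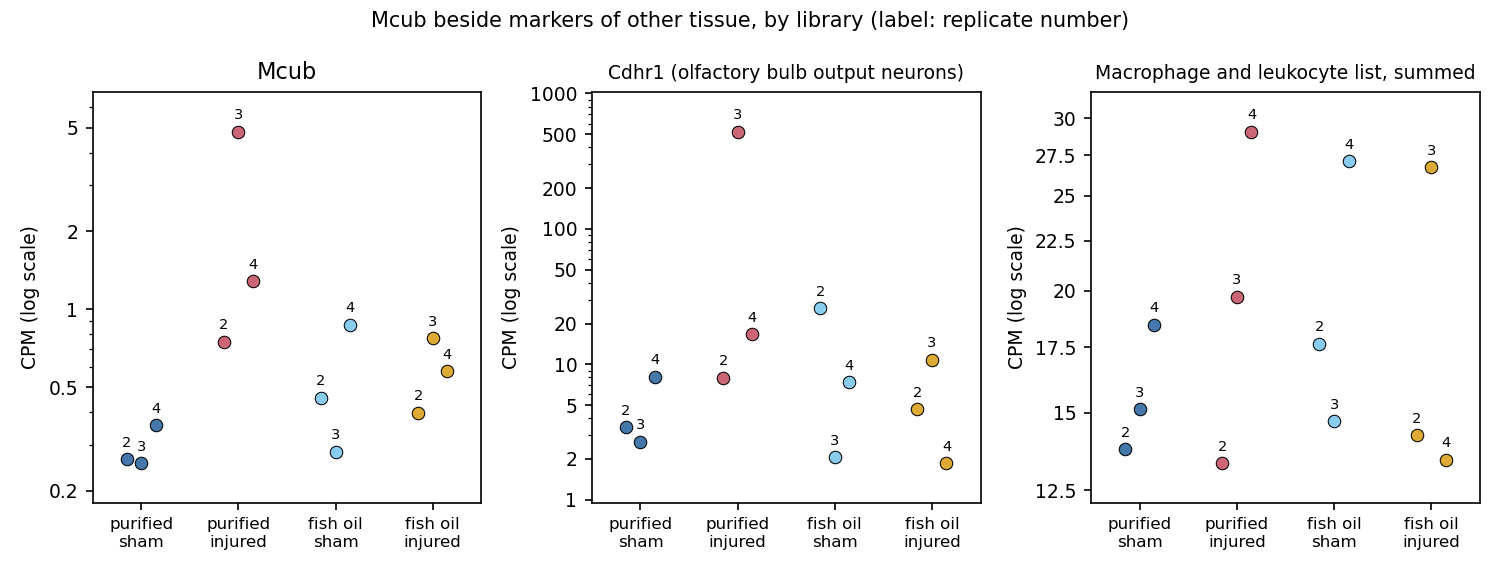
CPM on a log scale (vertical) by group for Mcub, for the olfactory bulb marker Cdhr1, and summed over 9 macrophage and leukocyte markers, 1 point per library labelled with its replicate number. Purified injured replicate 3 is highest for Mcub (4.83) and Cdhr1 (521), and purified injured replicate 4 is highest for the macrophage list (29.1).

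Markers of other tissue moved with Mcub in part. Of the 8 olfactory bulb genes listed 6 passed the filter, and their summed level was 1261 CPM in purified injured replicate 3 against 104 to 324 CPM in the other libraries. It was 176 and 147 CPM in the other purified injured libraries and 104 to 150 CPM in purified sham. In the library with the highest Mcub the bulb output neuron genes Eomes and Doc2g stood at 91.1 and 31.4 CPM, against at most 0.456 and 0.747 CPM elsewhere, and Eomes was at 0 in 2 other libraries. Of the 12 macrophage and leukocyte genes 9 passed the filter, and the T cell gene Cd3e and the monocyte gene Ly6c2 were at 0 in 5 and 4 libraries. The summed level was 13.8 to 18.5 CPM in purified sham, 13.3 to 29.1 CPM in purified injured, 14.7 to 27.1 CPM in fish oil sham and 13.4 to 26.7 CPM in fish oil injured libraries. In 3 of the 4 groups the library with the most macrophage signal also had the most Mcub: purified sham replicate 4, fish oil sham replicate 4 and fish oil injured replicate 3. The astrocyte list was highest in the same libraries of these groups, at 6221, 6399 and 6531 CPM. Slc1a2 made up most of these sums, at 4863, 4863 and 4907 CPM. In purified injured replicate 3, highest for Mcub, Slc1a2 was the lowest of the 12 at 2865 CPM. Aqp4 (280 CPM), Slc1a3 (970 CPM) and Gja1 (278 CPM) were there the highest of the 12, but Gfap was not. The hippocampus list was also highest in those libraries, at 161.8, 249 and 257.5 CPM, but purified sham spanned only 160.4 to 161.8 CPM. Wfs1 alone made up 61.7, 129.6 and 135 CPM of these sums. Neurod6 and Prox1 were highest of their group in none of these libraries, and Fibcd1 in all of them. The microglia list matched Mcub in purified sham, purified injured and fish oil injured libraries, so such a match was not particular to macrophage genes. In purified injured replicate 3, Sall1 made up 135.8 CPM of the microglia sum, against 24.7 and 29.6 CPM in the other purified injured libraries. Purified injured replicate 2 had 0.748 CPM of Mcub beside 13.3 CPM of macrophage signal, the lowest of the 12. Its bulb list summed to 176 CPM, above every purified sham library, but 146 CPM of this was Meis2. Meis2 was also high, at 239.5 CPM, in fish oil sham replicate 2, the striatal library. In purified injured replicate 2, Cdhr1 (7.96 CPM), Doc2g (0.453 CPM) and Slc32a1 (19.1 CPM) were within the purified sham range. Eomes (0.236 CPM) and Th (2.21 CPM) were above it. Meningeal fibroblast markers, all 8 of which passed, summed to 145 CPM in purified injured replicate 4, 128 CPM in fish oil sham replicate 4 and 137 CPM in fish oil injured replicate 3. Dcn alone made up 93.1, 79.4 and 82.7 CPM of these sums, and Lum and Igf2 did not share this order. The sum was 25.7 to 55.7 CPM in the rest, among them purified injured replicate 3, highest for Mcub, at 43.0 CPM. The part of these tissues in the Mcub values was not tested.

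The genes whose levels followed Mcub most closely over the 12 libraries were Neb, Lix1, Wls, Egln3 and Ptpn13, out of 13068 protein-coding genes that carry more than a provisional symbol, with Mcub itself left out, and have a mean of at least 1 CPM. Pearson correlations of log2 CPM were 0.976, 0.942, 0.938, 0.929 and 0.922, given as a ranking with no test, over libraries that share groups and the library that stands apart. Without purified injured replicate 3 they were 0.940, 0.888, 0.850, 0.798 and 0.812 over 11 libraries. Neb, which encodes the giant muscle protein nebulin, stood at 16.3 CPM in purified injured replicate 3 and at 1.43 to 5.80 CPM elsewhere. Wls, the carrier that takes Wnt proteins to the cell surface, stood at 110 CPM in that library and 54.3 to 82.8 CPM elsewhere. Egln3, an oxygen-sensing prolyl hydroxylase, was at 24.5 CPM there and 4.28 to 9.93 CPM elsewhere. All 5 genes had their highest value in the library that was highest for Mcub, which the ranking by correlation with Mcub itself favours.

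**Figure D3:**
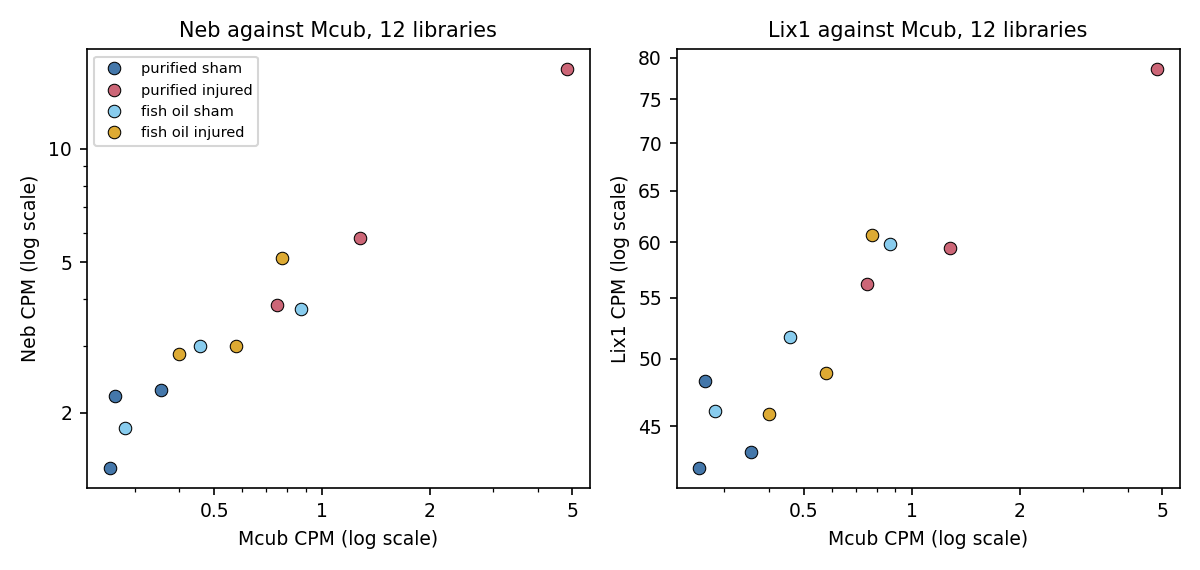
Neb and Lix1 (vertical, CPM, log scale) against Mcub (horizontal, CPM, log scale), 1 point per library coloured by group. Both rise with Mcub over the 12 libraries, and purified injured replicate 3 lies at the upper end of each, at 4.83 CPM of Mcub with 16.3 CPM of Neb and 78.6 CPM of Lix1.

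Mcu, the pore subunit, was steady by comparison. It stood at 27.7, 25.1 and 26.3 CPM in purified sham and at 30.0, 38.7 and 29.0 CPM in purified injured libraries. Fish oil sham libraries held 27.0, 26.8 and 34.1 CPM and fish oil injured libraries 28.2, 33.1 and 31.9 CPM. The purified injured libraries lay above the purified sham ones without overlap, by a log2 fold change of 0.31 ± 0.14 (SE) that is a description here and 0.18 without replicate 3, the highest of the 12. Injury on the fish oil diet gave 0.09 ± 0.14, with an interval from -0.21 to 0.38 (edgeR adjusted p = 0.999), in overlapping groups. It was 0.0181, 0.0123 and 0.209 without fish oil sham replicates 2, 3 and 4. The diet differences were 0.15 ± 0.14 in sham (edgeR adjusted p = 0.934), which was 0.0291 without fish oil sham replicate 4, and -0.07 ± 0.14 in injured mice (edgeR adjusted p = 0.886), the latter turning to 0.07 without purified injured replicate 3. The nearest patterns to Mcu over 12 libraries were those of Slc9a4, Pm20d1 and Lix1, at Pearson correlations of 0.896, 0.891 and 0.885, and 0.820, 0.802 and 0.784 without purified injured replicate 3. Lix1 thus stood near the top for both pore genes.

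Smdt1 (ENSMUSG00000022452.14, chr15:82338959-82349091, plus strand), whose product EMRE bridges pore and gatekeepers, ranged from 16.7 to 24.9 CPM with every group overlapping every other. Purified sham libraries were at 16.7, 18.0 and 21.6 CPM, purified injured at 16.8, 19.0 and 21.8 CPM, fish oil sham at 24.9, 18.9 and 19.95 CPM and fish oil injured at 17.8, 20.5 and 23.3 CPM. Injury on the purified diet gave a log2 fold change of 0.03 ± 0.16 (SE), a description, and 0.0548 without purified injured replicate 3. Injury on the fish oil diet gave -0.05 ± 0.16, interval -0.39 to 0.30 (edgeR adjusted p = 0.999), and 0.0685 without fish oil sham replicate 2. Its largest tested difference was between diets in sham mice, at 0.18 ± 0.16 with an interval of -0.16 to 0.52 (edgeR adjusted p = 0.934), and 0.06 without fish oil sham replicate 2.

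Micu3 (ENSMUSG00000039478.15, chr8:40307458-40386308, plus strand), the most abundant gatekeeper measured here, stood at 144.5, 139 and 147 CPM in purified sham and at 148, 113 and 148 CPM in purified injured libraries. In fish oil sham libraries it was at 135, 142.5 and 143 CPM and in fish oil injured ones at 155, 136 and 166.5 CPM. The single low value, 113 CPM, belonged to purified injured replicate 3, the library that was highest for Mcub and Mcu. The log2 fold change of injury on the purified diet was -0.08 ± 0.12 (SE), a description, and 0.0572 without that library. Fish oil injured libraries overlapped the sham ones, with a log2 fold change of 0.12 ± 0.12 (SE), interval -0.13 to 0.38 (edgeR adjusted p = 0.999). Between diets in injured mice it was 0.17 ± 0.12, interval -0.09 to 0.42 (edgeR adjusted p = 0.616), and 0.04 without purified injured replicate 3. The diet difference in sham mice was -0.03 ± 0.12 (edgeR adjusted p = 0.976), and 0.000486 without fish oil sham replicate 2.

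Micu2 (ENSMUSG00000021973.9, chr14:57916261-57999262, minus strand), the gatekeeper that works as a partner within MICU pairs, held 23.2, 20.6 and 24.3 CPM in purified sham, 18.9, 27.4 and 26.7 CPM in purified injured, 23.5, 22.7 and 24.3 CPM in fish oil sham and 24.0, 22.4 and 22.2 CPM in fish oil injured libraries. Its lowest and highest values of the 12 both fell in the purified injured group. Injury on the purified diet, described only, gave a log2 fold change of 0.10 ± 0.14 (SE), which was 0.0222 without replicate 3 and 0.254 without replicate 2. The tested log2 differences were -0.04 ± 0.14 for injury on fish oil, 0.05 ± 0.14 for diet in sham and -0.09 ± 0.14 for diet in injured mice (edgeR adjusted p = 0.999, 0.968 and 0.840). The last was -0.00494 without purified injured replicate 3 and -0.242 without purified injured replicate 2.

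The associated genes Mcur1 (ENSMUSG00000021371.5, chr13:43538393-43560191, minus strand) and Letm1 (ENSMUSG00000005299.6, chr5:33739673-33782817, minus strand) were the steadiest of the 7. Mcur1 ran from 24.6 to 31.4 CPM and Letm1 from 73.8 to 92.8 CPM, so that the highest library was 1.28 and 1.26 times the lowest. Among 9858 genes with a mean of at least 10 CPM the median of this ratio was 1.54, and 88.4% and 91.7% of them had a larger ratio than Mcur1 and Letm1. For Micu2, Micu3, Smdt1 and Mcu it was 1.45, 1.48, 1.49 and 1.54, near that median, and for Mcub 18.9. Mcur1 stood at 28.6, 29.9 and 27.1 CPM in purified sham, 27.5, 29.3 and 30.4 CPM in purified injured, 24.6, 27.8 and 30.1 CPM in fish oil sham and 24.7, 25.9 and 31.4 CPM in fish oil injured libraries, with every group overlapping every other. Letm1 was at 79.45 ± 4.85 CPM (SD, n = 3) in purified sham, 77.5 ± 3.804 in purified injured, 85.8 ± 6.62 in fish oil sham and 83.4 ± 5.79 in fish oil injured libraries. Injury on the purified diet, described only, gave log2 fold changes of 0.03 ± 0.12 (SE) for Mcur1 and -0.04 ± 0.09 for Letm1, the latter 0.0139 without purified injured replicate 3. The log2 difference of Letm1 between diets was 0.11 ± 0.09 in sham and 0.10 ± 0.09 in injured mice (edgeR adjusted p = 0.934 and 0.703), and 0.0597 and 0.0616 without fish oil sham replicate 2 and purified injured replicate 3. Mcur1 gave -0.05 ± 0.12 and -0.09 ± 0.12 in the same comparisons (edgeR adjusted p = 0.961 and 0.799), the first 0.0281 without fish oil sham replicate 2.

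**Figure D4:**
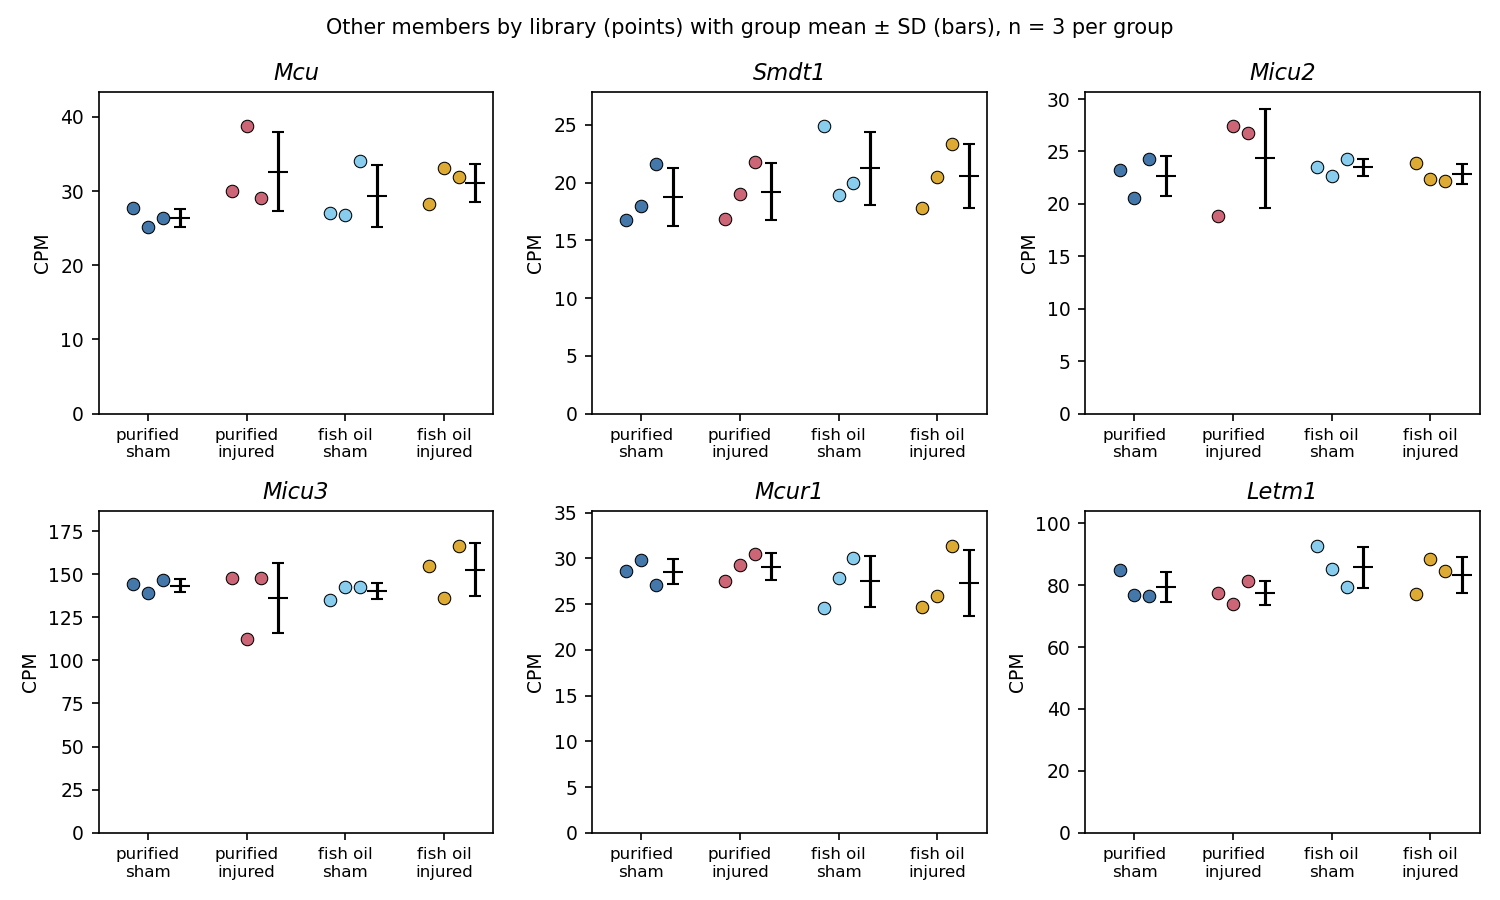
CPM (vertical, from 0) of the 6 members other than Mcub by group, with 1 point per library and a bar for the group mean ± SD (n = 3). The single low Micu3 point (113) and the single high Mcu point (38.7) are the same library, purified injured replicate 3.

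For the 6 members other than Mcub the tested comparisons set limits on how large a change could be. Their 95% intervals for injury on the fish oil diet lay between -0.39 and 0.38 on the log2 scale, those for diet in sham mice between -0.31 and 0.52 and those for diet in injured mice between -0.39 and 0.44. For the difference between the 2 injury effects the intervals were wider, from -0.64 for Mcu to 0.56 for Micu3, with values of -0.22 ± 0.19 and 0.20 ± 0.16 (edgeR adjusted p = 0.855 and 0.841). Without purified injured replicate 3 these were -0.0979 and 0.0599. No interval of these 6 members left out 0. In the tested comparisons none of the 7 members had groups that did not overlap, against 4.97% of genes higher and 5.23% lower for injury on fish oil, 6.31% and 7.45% for diet in sham, and 5.6% and 5.98% for diet in injured mice. The median log2 fold change of the 7 members was 0.03 for injury on the purified diet, -0.01 for injury on fish oil, 0.11 for diet in sham, -0.07 for diet in injured mice and -0.08 for the difference between the injury effects. Over all genes the medians were -0.00512 to 0.00589 in the first 4 and -0.02 in the last. Without Mcub, by which the set was chosen, the medians of the 6 others were 0.03, -0.02, 0.08, 0.01 and -0.06, so that for diet in injured mice the sign turned.

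**Figure D5:**
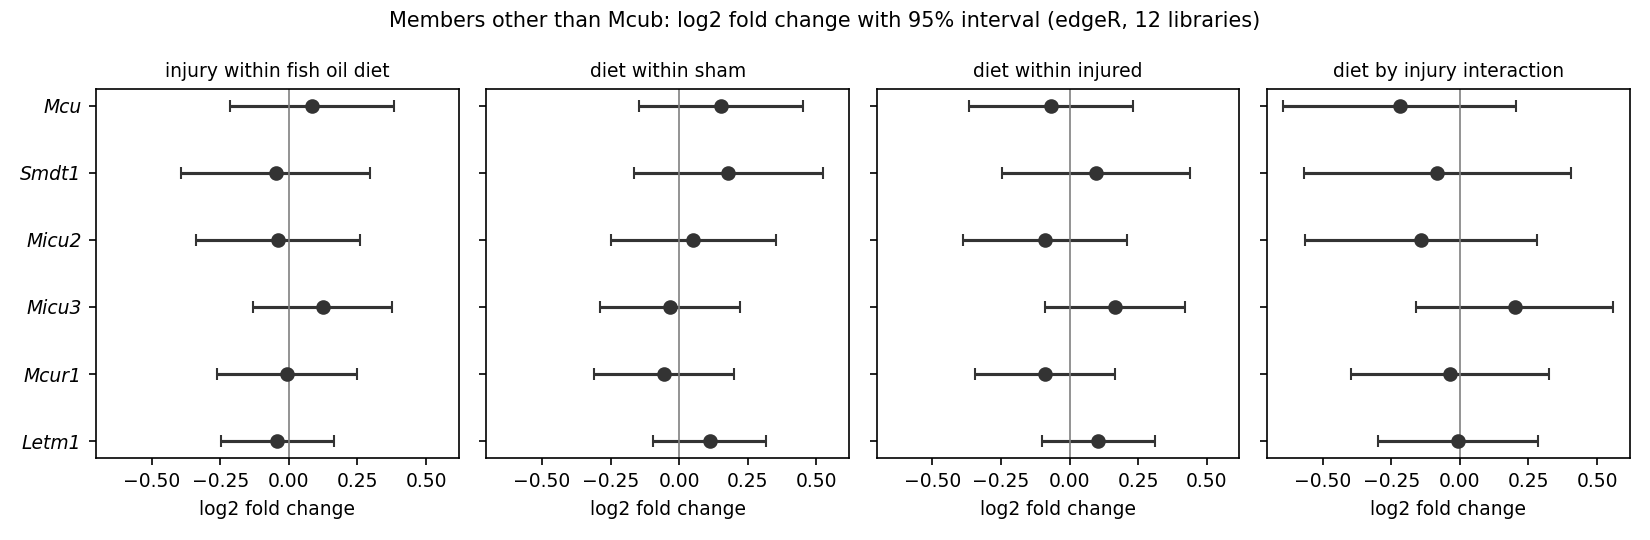
Log2 fold change (horizontal) with its 95% interval for the 6 members other than Mcub in the 4 tested comparisons, from edgeR on 12 libraries. Every interval includes 0, and they are widest for the diet by injury interaction, where Mcu reaches -0.64.

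Other genes of mitochondrial calcium handling were examined as 5 lists of 50 genes in all, each of which passed the filter. None passed the adjusted test in either direction in any comparison, the same 0% as over all genes. For injury on the purified diet, described only, 19 genes were above 0 and 31 below, with a median of -0.05, and 5 of the 50 had non-overlapping groups with the injured side lower and 0 with it higher, against 6.68% and 4.92% of all genes. For injury on fish oil 34 were above 0 and 16 below, with a median of 0.03, and 3 were higher and 1 lower without overlap, against 4.97% and 5.23% of all genes. For diet in sham mice 26 were above 0 and 24 below, with a median of 0.04, and for diet in injured mice 39 were above 0 and 11 below, with a median of 0.14. Without overlap, 6 of the 50 were higher on fish oil and 2 lower in sham mice, against 6.31% and 7.45% of all genes, and 8 higher and 1 lower in injured mice, against 5.6% and 5.98%. These counts come from shared groups of libraries.

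Genes of uniporter assembly, gating and quality control, 7 in number, had medians of -0.000204 for injury on the purified diet and 0.02 for injury on fish oil. The 5 genes of calcium efflux and cation exchange had medians of -0.22 and -0.06, the 18 of calcium release and contact sites -0.05 and 0.04, and the 10 calcium-sensing mitochondrial genes -0.08 and 0.03. The 10 genes of general mitochondrial content, among them Tfam, the factor that packages mitochondrial DNA, had medians of -0.03 and 0.08, with 4 and 9 of 10 above 0. For diet in injured mice the medians of the lists, in the same order, were 0.05, -0.03, 0.13, 0.15 and 0.18, with 5 of 7, 2 of 5, 14 of 18, 9 of 10 and 9 of 10 genes above 0, beside a median of 0.00584 over all genes.

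Pdp1, the calcium-activated phosphatase that switches on pyruvate dehydrogenase, had the smallest p of these genes in 3 comparisons. It stood at 217, 281 and 276 CPM in purified sham and at 184, 129 and 155 CPM in purified injured libraries, without overlap. Fish oil sham libraries held 162, 205 and 150 CPM and fish oil injured libraries 230, 152 and 268 CPM, which overlapped. The log2 fold change of injury on the purified diet was -0.73 ± 0.21 (SE). Diet in sham mice gave -0.58 ± 0.21, lower in all 3 fish oil libraries than in any purified one, and an edgeR adjusted p of 0.934. The difference between the injury effects of the diets was 1.06 ± 0.30, with an edgeR adjusted p of 0.820, so neither passed.

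Ryr1, a ryanodine receptor that releases calcium from the endoplasmic reticulum, was at 32.6, 43.8 and 12.9 CPM in purified injured against 13.3, 10.5 and 13.6 CPM in fish oil injured libraries. The groups overlapped through purified injured replicate 4. The log2 difference was -1.26 ± 0.37 (SE) with an edgeR adjusted p of 0.378. Without purified injured replicate 3, the library that stands apart, it was -0.88 (edgeR adjusted p = 0.819). It passed without replicate 4, at -1.63 (edgeR adjusted p = 0.0328), and by DESeq2 over all 12 libraries, at -1.26 (DESeq2 adjusted p = 0.047). Ryr2, the form prominent in cortical neurons, was at 324 ± 49.9 CPM (SD, n = 3) in fish oil sham and 445 ± 105 in purified sham libraries, a difference of -0.46 ± 0.17 (edgeR adjusted p = 0.934) that was -0.26 without purified sham replicate 3.

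Slc8b1, which encodes the sodium-driven exporter of mitochondrial calcium, was low, at 5.36 ± 0.385 CPM (SD, n = 3) in purified sham and 6.45 ± 0.915 in purified injured libraries. It was at 6.16 ± 0.700 CPM in fish oil sham and 5.00 ± 0.263 CPM in fish oil injured libraries, and the difference between the injury effects was -0.57 ± 0.23 (SE, edgeR adjusted p = 0.820). Tmem65, a mitochondrial protein tied to that exporter, was at 159 ± 6.99 CPM in purified sham and 127 ± 7.56 CPM in purified injured libraries, without overlap, a log2 difference of -0.32 ± 0.14 that is described only. It was at 153 ± 19.0 and 153 ± 28.6 CPM in the fish oil groups. Tfam was at -0.25 ± 0.13 in the same comparison. For injury on fish oil the smallest p-values belonged to the import channel gene Timm23 at 0.24 ± 0.12, the permeability pore gene Ppif at -0.24 ± 0.12 and the contact-site gene Pdzd8 at 0.17 ± 0.09 (edgeR adjusted p = 0.999 for each). Timm23 was at 0.138 without fish oil injured replicate 4 and Pdzd8 at 0.0905 without fish oil sham replicate 3. Phb, a prohibitin of the inner membrane, was 0.25 ± 0.11 higher on fish oil in sham mice (edgeR adjusted p = 0.934). Between diets in injured mice the contact-site gene Vapb was at 0.23 ± 0.09 and Timm23 at 0.30 ± 0.12 (edgeR adjusted p = 0.413 and 0.430), and Timm23 at 0.192 without fish oil injured replicate 4.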

How the data were processed

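Stranded libraries of total RNA were sequenced as paired reads of 100 bases, per the labels' protocols. The submitters' processing notes name STAR 2.5.2a, featureCounts 1.4.3-p1 and mm10. For the annotation, the strand setting and the treatment of multi-mapping reads: not given in the sources used here. The deposited values are raw counts per gene, as whole numbers. Values of 2 (20514) outnumber values of 1 (11222), so both mates of a pair appear to be counted. Identifiers were matched without version to GENCODE M21 (53274 of 53379). Smdt1 matched only without its version, so its position and exon length may differ from those counted.

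Counts were filtered (filterByExpr, minimum count 10), scaled by TMM and fitted with edgeR 4.0.16 (glmQLFit, glmQLFTest, robust) to 4 group means over 12 libraries, with adjustment over 19252 genes and a threshold of 0.05. Standard errors come from the F statistic, and 95% intervals from its t quantile. The procedure was tested on simulated counts. DESeq2 1.42.0 and limma 3.58.1 were alternatives, beside other factors, filters, fits and left-out libraries. Members and lists were chosen with earlier results of these data known. The genes named beside the members are, in each comparison, the 3 with the smallest p of the 50 other genes, and the 5 and 3 most like Mcub and Mcu (log2 CPM, prior count 2). Every pair of libraries within a group differed far beyond sampling noise, with a chi-square of at least 32.5 per degree of freedom, so each was counted once.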

Additional observations from a re-analysis of the deposited data

How the results depend on the processing

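Members' values are log2 fold changes. No tested member passed the threshold under any alternative, and under the RLE, unfiltered, DESeq2, limma-voom, replicate block and compared-groups fits every tested member kept its sign. With 1 library left out, Mcub ranged from 1.80 to 3.37 for injury on the purified diet and from -0.204 to 0.667 on fish oil. Without fish oil sham replicate 4, Mcu fell from 0.152 to 0.0291 for diet in sham. Other members near 0 that changed sign in a tested comparison were, on fish oil, Smdt1 (-0.154 to 0.0685), Mcur1 (-0.124 to 0.0613) and Letm1 (-0.0933 to 0.0118). For diet in sham they were Micu2 (-0.00493 to 0.105), Micu3 (-0.0469 to 0.000486) and Mcur1 (-0.123 to 0.0281), and in injured mice Mcu (-0.156 to 0.0655) and Smdt1 (-0.0117 to 0.192). For the interaction they were Smdt1 (-0.196 to 0.0277), Mcur1 (-0.158 to 0.033) and Letm1 (-0.0622 to 0.0475). Without both fish oil sham replicate 2 and purified injured replicate 3, Mcub was at 1.80 for injury on the purified diet. Smdt1 (0.0746) and Letm1 (0.012) then turned for injury on fish oil, Micu3 (0.00427) and Mcur1 (0.0318) for diet in sham, Mcu (0.0655) for diet in injured mice and Smdt1 (0.0199) for the interaction. The cause was not tested.

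Genes called over the whole table were 0 by edgeR. DESeq2 called 17 and 35 for injury on the purified and fish oil diets, 16 and 154 for diet in sham and injured mice and 22 for the interaction, and limma-voom called 1 for injury on fish oil. Leaving out 1 library gave 0 to 7 for injury on fish oil and 0 to 83 for diet in injured mice, and leaving out both libraries named above gave 1 for the latter. With 1 library left out, a group of 2 is assumed to vary like the others. The replicate numbers pair no animals in the labels, and deviations of same-numbered libraries correlated at -0.371 to 0.278 (3 of 18 pairs over 0.1). In every group the submitters' library names of replicates 3 and 4 share a first number that replicate 2 does not have. What it stands for is not stated, and whether those libraries are less independent was not tested. With the replicate block Mcub was at 2.72 and 0.0351 for injury on the 2 diets, and 0 genes were called. Mcub's 12 to 64 counts in all but 1 library limit its precision.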
